A study of Mus musculus with 24 samples.

Results

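Transcripts of 49 mouse genes of DNA damage signalling and DNA repair were followed in thymocytes after low dose, high dose and combined irradiation. The genes were listed by their known function, though with earlier results of these data known. Each was represented by the probe of its transcript accession with the highest mean Cy5 signal. A probe was found for 48 of the 49, and no probe was matched by accession here for Rad51c. Thymocyte RNA of C57BL/6J mice aged 4 to 5 weeks was hybridised to 24 Agilent 2-colour arrays, 3 for each sex and treatment. The treatments were control (0 Gy), low dose (0.075 Gy of X-rays), high dose (1.75 Gy of γ-rays), and RAR, the radio-adaptive schedule of 0.075 Gy of X-rays followed 6 h later by 1.75 Gy of γ-rays. Sexes were averaged with equal weight, so that each treatment was represented by 6 arrays, 3 of females and 3 of males. Each thymocyte RNA was labelled with Cy5 and set against the same Universal Mouse RNA in Cy3, without a dye swap, so all values are log2 ratios of thymocyte signal to that reference. The 3 samples of a group are independent per the labels and, per the study's methods, came from 3 individuals. The time from irradiation to harvest is not given in the sources used here.

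Radiation breaks DNA on 1 or both strands and damages bases. Double-strand breaks are sensed by the MRE11-RAD50-NBN complex and the kinases ATM and ATR, marked by phosphorylated H2AX, and rejoined either by end joining through the KU heterodimer and ligase IV or, where a sister chromatid is present, by homologous recombination. Damaged bases and single-strand breaks are repaired by base excision repair, bulky lesions by nucleotide excision repair, and translesion polymerases copy past lesions that remain. Thymocytes depend on end joining to assemble antigen receptor genes, and immature thymocytes are among the most radiosensitive cells of the body.

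Thymocyte markers were detected: 12 of 12 thymocyte genes, among them Cd4, Cd8a, Rag1 and Dntt, were well above background in Cy5 on every array. The same held for 11 of 11 myeloid and 5 of 5 mature T cell markers, so detection alone does not tell these cell types apart. Of the 48 repair genes, 38 were well above background on all 24 arrays, 7 on 20 to 23, and 3 on fewer, namely Fancd2 on 16, Rrm2b on 13 and Brca1 on 1. The share of all spots well above background in Cy5 was 34.7% on female RAR replicate 3 and 71.8% on female RAR replicate 2, against 49.3% to 62.8% on the other 22 arrays. Correlations of log2 ratios between arrays of a group ran from 0.801 to 0.914. The arrays lay on 3 slides, all female controls on 1 and all female high-dose arrays on another.

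Against control, the repair genes fell far more often than they rose, and most often after both exposures. A gene was called where it differed by 1.5-fold or more and its Benjamini-Hochberg adjusted p, from a limma fit to all 55681 probes, was below 0.05. After RAR 27 of the 48 fell and 4 rose, while 13.7% of all probes were called lower and 12.4% higher. After low dose 10 fell and 3 rose, with 4.83% and 5.09% of all probes called lower and higher. After high dose 10 fell and 4 rose, against 5.63% and 5.89%. The median log2 difference of the 48 was -0.28 after low dose, -0.30 after high dose and -0.68 after RAR, beside medians over all probes of -0.01, -0.02 and -0.03. Most probes that are dim cannot be called, and among the 32752 probes that were well above background throughout at least 1 group 21.4% were called lower after RAR and 18.4% higher. By adjusted p alone, without the fold, 38 of the 48 were lower and 4 higher after RAR, and 38.4% of all probes passed in either direction. The split depended on the background correction: with normexp and loess in place of the scanner software's processed signals, 12 fell and 4 rose after RAR, 2 fell and 3 rose after low dose, and 4 fell and 4 rose after high dose. With Cy5 alone, where the median of all probes stood at 0.52 after RAR and 0.16 after low dose, 31 fell and 4 rose after RAR, 7 fell and 2 rose after low dose, and 12 fell and 4 rose after high dose. Under both settings most of all probes called after RAR were higher, against a minority by the processed signals, with the shares given in the section on processing. The shares of all probes called lower and higher after the single doses under these settings are not given. These are bulk samples, so fewer cells of a type and less RNA per cell cannot be told apart.

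The 3 comparisons share the same control arrays, so their calls are given side by side. Nbn, Xrcc3, Xrcc5, Parp1, Lig3, Apex1, Rrm2b and Fancd2 were called lower in all 3 comparisons, although some calls of Rrm2b, Fancd2, Xrcc5 and Lig3 were lost with the slide as a block, and Ung, Ercc5 and Polk rose in all 3. A further 17 genes were called in RAR against control and not after either dose alone, and all 17 were lower: Chek2, Rnf168, H2afx, Brca2, Bard1, Palb2, Rad54l, Xrcc2, Xrcc4, Xrcc6, Lig4, Nhej1, Xrcc1, Ogg1, Xpc, Ercc1 and Fanci. In none of the 3 were 16 called, and 0 were called in opposite directions. Of the 48, 41 had their lowest treatment mean in RAR and 35 had their highest in control. The shares of all probes with these patterns of calls or these orders of means are not given here. The 17, the 41 and the 35 thus cannot be read as particular to the repair genes. The 6 RAR arrays and the 6 control arrays did not overlap for 37 genes, 33 of them lower and 4 higher in RAR, with 14.9% and 9.96% of all probes so separated.

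**Figure D1:**
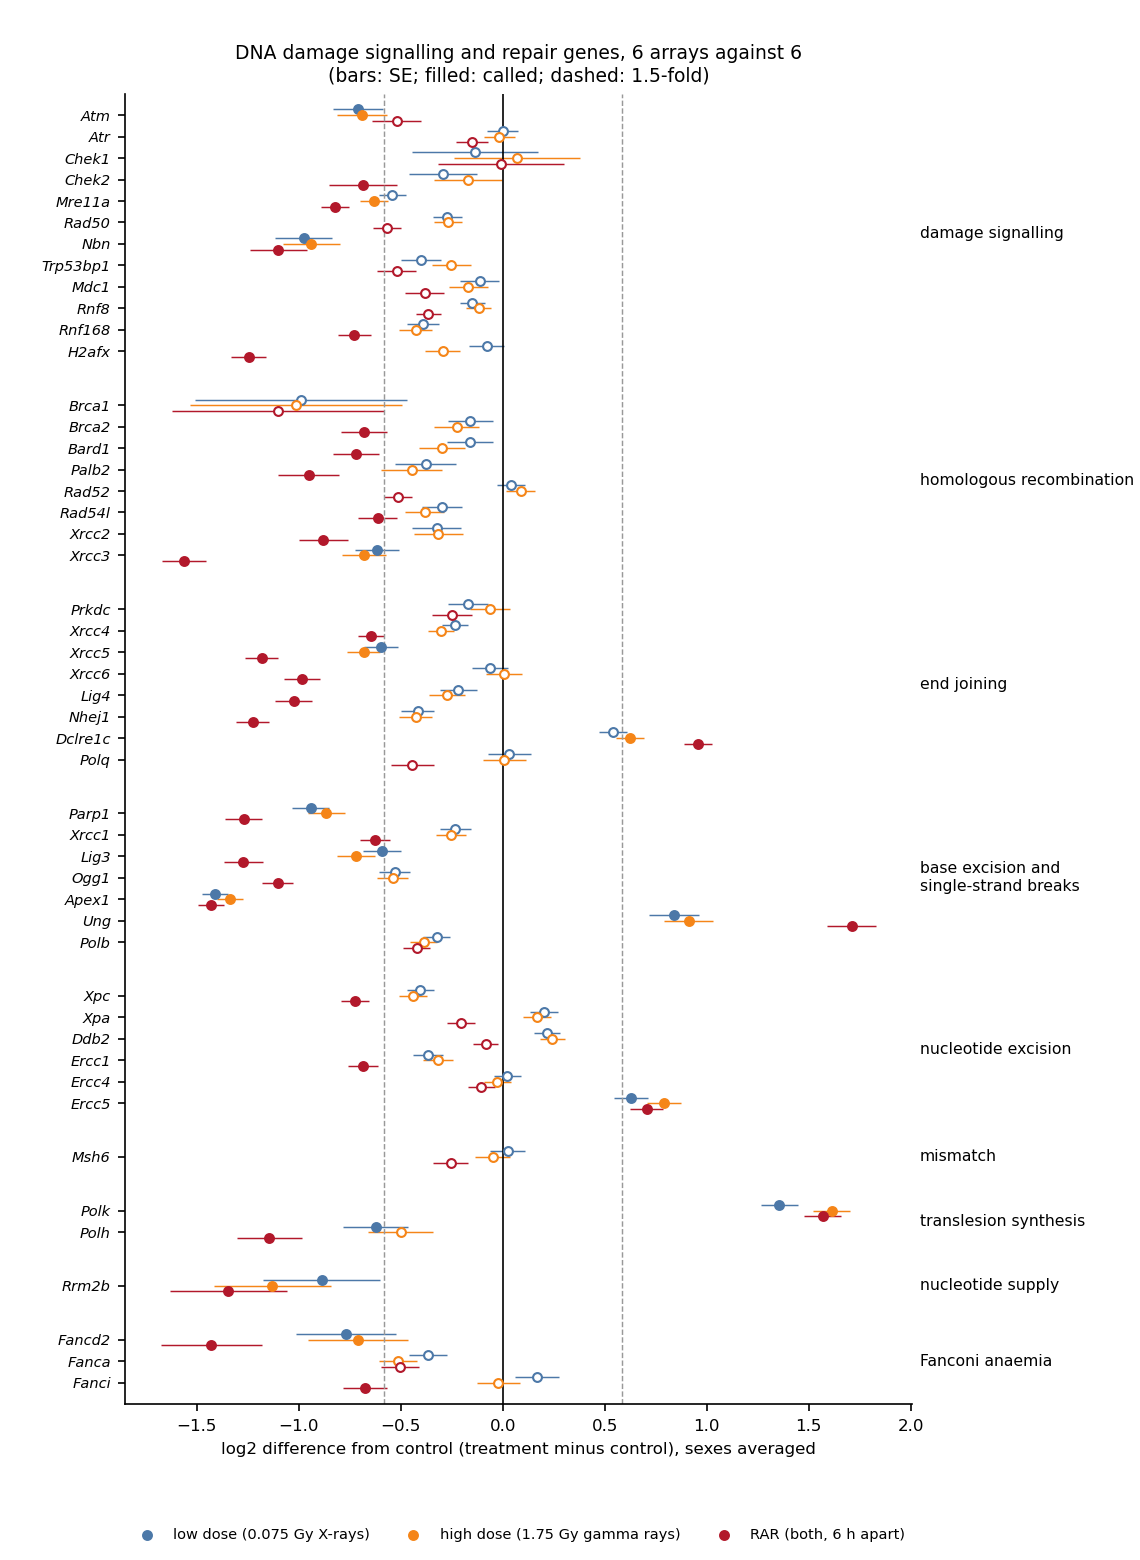
Log2 difference from control (x axis) for the 48 genes (y axis, grouped by role) after low dose, high dose and RAR, 6 arrays against 6; points are estimates, bars are SE, filled points are called and dashed lines mark 1.5-fold. Most points lie left of 0, the RAR points farthest, while Ung, Polk, Ercc5 and Dclre1c lie to the right.

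Slide was the one batch that the array files gave, and 5 of the 6 control arrays lay on slide 3, which held no high-dose or RAR array. With the slide as a block, 8 genes were called after low dose in place of 13, 9 after high dose in place of 14 and 28 after RAR in place of 31. The share of all probes called with the block is not given here. These drops thus cannot be read as particular to the repair genes. The block ended the low-dose calls of Xrcc5, Lig3, Polh, Rrm2b and Fancd2, the high-dose calls of Atm, Mre11a, Dclre1c, Rrm2b and Fancd2, and the RAR calls of Chek2, Xrcc4, Rrm2b and Fanci, while Rad50 was then called after RAR. Rrm2b was thus called in none of the 3 comparisons with the block (-0.71, -0.51 and -0.73 after low dose, high dose and RAR). Within slide 3, with 3 low-dose and 5 control arrays, the 13 genes called after low dose kept their signs. They were called with these same arrays, so kept signs were likely beforehand and say little about the slide. Within slide 2, the signs of the 14 genes called after high dose and of the 31 called after RAR were also kept, but there 2 arrays were set against a single control array, male control replicate 1, whose mean over the 48 genes was the highest of all 24 arrays, so this says little about the slide. Without both female RAR arrays whose detection stood apart, 31 genes were again called after RAR, 27 lower and 4 higher, a fit chosen after the values were seen.

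Promoter windows were available for 38 of the 48 genes in RefSeq (GRCm38.p6), each from 250 bases before to 50 bases after a transcription start. The windows of 6 genes that carry the main patterns are shown, with the letters TTTCCCGC (known to bind E2F factors) and CCAAT (known to bind NF-Y), on either strand, in capitals.
Xrcc6, chr15:82016119-82016418, plus strand: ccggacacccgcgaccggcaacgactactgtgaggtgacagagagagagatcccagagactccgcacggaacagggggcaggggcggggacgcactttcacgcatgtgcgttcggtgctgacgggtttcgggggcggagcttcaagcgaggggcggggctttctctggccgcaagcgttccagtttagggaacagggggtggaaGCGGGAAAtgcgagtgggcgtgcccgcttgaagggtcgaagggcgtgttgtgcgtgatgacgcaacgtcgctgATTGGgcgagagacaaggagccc
Brca2, chr5:150522371-150522670, plus strand: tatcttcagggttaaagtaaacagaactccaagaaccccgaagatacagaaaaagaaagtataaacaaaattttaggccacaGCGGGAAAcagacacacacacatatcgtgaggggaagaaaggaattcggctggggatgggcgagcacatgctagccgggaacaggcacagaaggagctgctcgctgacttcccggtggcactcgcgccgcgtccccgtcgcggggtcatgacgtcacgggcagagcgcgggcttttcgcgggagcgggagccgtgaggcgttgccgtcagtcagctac
Xrcc3, chr12:111813830-111814129, minus strand: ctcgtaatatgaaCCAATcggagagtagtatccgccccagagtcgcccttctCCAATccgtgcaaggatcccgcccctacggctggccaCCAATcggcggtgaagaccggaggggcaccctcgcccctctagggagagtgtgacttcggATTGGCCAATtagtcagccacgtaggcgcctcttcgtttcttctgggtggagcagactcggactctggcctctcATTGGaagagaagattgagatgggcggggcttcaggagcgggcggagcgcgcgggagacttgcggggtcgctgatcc
Apex1, chr14:50924699-50924998, plus strand: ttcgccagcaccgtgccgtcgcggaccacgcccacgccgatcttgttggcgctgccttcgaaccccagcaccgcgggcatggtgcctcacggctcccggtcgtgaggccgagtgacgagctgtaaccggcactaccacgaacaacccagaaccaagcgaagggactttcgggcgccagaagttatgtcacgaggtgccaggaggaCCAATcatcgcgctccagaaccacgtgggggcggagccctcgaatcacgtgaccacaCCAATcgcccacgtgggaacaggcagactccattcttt
Ung, chr5:114130185-114130484, plus strand: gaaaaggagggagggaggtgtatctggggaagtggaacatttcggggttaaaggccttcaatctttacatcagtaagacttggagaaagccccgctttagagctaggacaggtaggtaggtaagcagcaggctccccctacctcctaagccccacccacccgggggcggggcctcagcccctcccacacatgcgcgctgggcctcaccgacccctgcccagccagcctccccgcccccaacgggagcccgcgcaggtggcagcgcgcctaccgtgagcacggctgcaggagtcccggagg
Polk, chr13:96542530-96542829, minus strand: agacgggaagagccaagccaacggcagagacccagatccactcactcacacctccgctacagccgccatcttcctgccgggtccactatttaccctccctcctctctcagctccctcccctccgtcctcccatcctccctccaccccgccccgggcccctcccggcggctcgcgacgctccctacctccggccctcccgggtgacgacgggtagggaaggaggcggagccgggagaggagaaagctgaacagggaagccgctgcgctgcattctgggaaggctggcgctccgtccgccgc
Xrcc6 and Brca2 are shown because they were called lower after RAR and after neither single dose, and hold TTTCCCGC. Xrcc3 and Apex1 are shown as the genes with the largest falls, after RAR and after the single doses respectively, and their windows hold CCAAT. Ung and Polk, the genes with the largest rises, hold neither in the windows shown. The windows of Dclre1c and Ercc5, which also rose after RAR, hold the letters known to bind NF-Y. Those letters were in 2 of 4 genes higher after RAR (50%), 10 of 21 lower (47.6%) and 8 of 13 not called (61.5%). With only 4 genes higher, no conclusion is drawn from these shares. TTTCCCGC was found in 6 of the 38 genes (15.8%) and in 334 of 27025 genes with a window (1.24%). Its 6 carriers were Bard1, Brca2, Chek2 and Xrcc6, all of which were called lower after RAR and after neither single dose, and Mdc1 and Msh6, which were not called. The shares were close, 4 of 21 genes called lower after RAR (19%) and 2 of 13 not called (15.4%). Of the carriers, only Xrcc6 was also called in RAR against each single dose, and Chek2 lost its RAR call with the slide as a block. TTTGGCGC, another E2F sequence, was in 0 of the 38 and in 0.585% of all genes. CCAAT was in 20 of the 38 (52.6%) and in 41.1% of all genes, and TTTGAA, the core of the cell cycle element CHR, in 4 (10.5%) and in 20.2%. TTGGCGCC, which can overlap TTTGGCGC, was in Brca1 alone among the 38. A pair of TRP53 half-sites was in 0 of the 38 windows and in 0.074% of all genes. These are counts of letters in short windows and carry no test.

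Among 12 damage signalling genes, 5 fell after RAR and 0 rose, with differences from -1.25 to -0.01. In what follows, the log2 ratios of a gene are given as the lowest, median and highest of the 6 arrays of a treatment. H2afx, the histone variant phosphorylated around breaks, read 1.35, 1.48 and 1.74 in control, 1.24, 1.45 and 1.63 at low dose, 0.99, 1.27 and 1.52 at high dose, and -0.08, 0.25 and 0.65 in RAR. All 6 RAR arrays lay below all 18 others, while control, low dose and high dose overlapped. H2afx was lower in RAR than in control by 2.37-fold (log2 difference -1.25, SE 0.09, adjusted p = 2.16e-09), and differed from control by -0.08 and -0.30 after the single doses, neither of which was called.

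Nbn, a subunit of the break-sensing complex, changed differently. Its log2 ratios were -1.03, -0.67 and -0.39 in control, -1.90, -1.66 and -1.35 at low dose, -2.03, -1.59 and -1.25 at high dose, and -2.21, -1.71 and -1.52 in RAR. Control stood above the other 18 arrays, which overlapped one another. The log2 difference from control was -0.98 after low dose, -0.94 after high dose and -1.10 after RAR (SE 0.14 in each, adjusted p = 5.17e-05, 6.18e-05 and 3.41e-06). Mre11a, the nuclease of the same complex, read -0.29, -0.14 and 0.08 in control, -0.75, -0.68 and -0.54 at low dose, -0.98, -0.73 and -0.64 at high dose, and -1.13, -0.93 and -0.79 in RAR. It was lower than control by 0.54 after low dose, just short of 1.5-fold, and was called at -0.63 after high dose and -0.82 after RAR. Rad50, which tethers the complex to DNA ends, was not called, at -0.27, -0.27 and -0.57 after low dose, high dose and RAR.

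The kinases behaved unlike one another. Atm, which relays the break signal, was called after low dose (-0.71) and high dose (-0.69) and not after RAR (-0.52, adjusted p = 0.00182), and its second probe, not called, gave -0.43, -0.38 and -0.08. Atr and Chek1, the kinases of stalled replication, were not called in any of these comparisons and lay between -0.15 and 0.07, while Chek2, a target of ATM, was called after RAR (-0.69). The high-dose call of Atm and the RAR call of Chek2 were lost with the slide as a block (adjusted p = 0.203 and 0.0772). Of the factors that read ubiquitin and histone marks at breaks, the ligase Rnf168 fell after RAR (-0.73) and Rnf8, Mdc1 and Trp53bp1 had differences of -0.37, -0.38 and -0.52 that were not called.

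Of 8 measured homologous recombination genes, 6 were called lower than control after RAR and 1 after each single dose, and 0 were called higher. Tested directly, 2 of the 8 were lower in RAR than at high dose and 1 was lower than at low dose. Xrcc3, a gene of strand-exchange repair, had the largest fall of the 48 genes in RAR. Its log2 ratios were -0.66, -0.37 and -0.15 in control, -1.14, -0.95 and -0.89 at low dose, -1.36, -1.09 and -0.64 at high dose, and -2.31, -1.99 and -1.51 in RAR. The RAR arrays did not overlap any other treatment, and low dose did not overlap control. Xrcc3 was lower than control by 1.54-fold after low dose, 1.60-fold after high dose and 2.96-fold after RAR (log2 difference -1.56, SE 0.11, adjusted p = 1.9e-09). The low-dose call was lost on leaving out any of 3 single arrays, as was that of Xrcc5.

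Palb2, which links BRCA1 to BRCA2, read 0.10, 0.25 and 0.70 in control, -0.63, 0.00 and 0.23 at low dose, -0.39, -0.16 and 0.10 at high dose, and -1.0, -0.70 and -0.21 in RAR. Only RAR was separate from control, at -0.95 (SE 0.15). Xrcc2, another gene of this pathway, read -0.70, -0.63 and -0.43 in control, -1.32, -0.87 and -0.79 at low dose, -1.36, -0.91 and -0.51 at high dose, and -1.74, -1.62 and -1.08 in RAR, and fell after RAR by 0.88 (SE 0.12). Brca2, a tumour suppressor gene of this pathway, fell after RAR by 0.68, Bard1, the partner of BRCA1, by 0.72 and the motor protein gene Rad54l by 0.61. The call of Bard1 rested on the probe: of its other probes 1 gave -1.0 and was called and 1 gave -0.05. Rad54l lost its call without female control replicate 2, female RAR replicate 3 or male RAR replicate 2. Rad52, an annealing protein, was at -0.51 against control and was not called there. Brca1 was well above background on 1 of 24 arrays, a control array, and its differences, -0.99 to -1.10, were not called.

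In end joining, 5 of 8 genes fell after RAR and 1 rose. The genes of the KU heterodimer, which holds broken ends, took different courses. Xrcc5 (KU80) read -0.45, -0.34 and -0.23 in control, -1.08, -0.93 and -0.78 at low dose, -1.25, -1.07 and -0.75 at high dose, and -1.95, -1.46 and -1.27 in RAR. It was already 1.51-fold lower after low dose and 1.61-fold lower after high dose, and 2.27-fold lower after RAR. Xrcc6 (KU70) read 2.60, 2.69 and 2.79 in control, 2.37, 2.57 and 2.95 at low dose, 2.48, 2.72 and 2.84 at high dose, and 1.54, 1.63 and 2.15 in RAR. Single doses left Xrcc6 overlapping control, at -0.06 (95% interval -0.25 to 0.12) and 0.01 (-0.18 to 0.19), and RAR lay 1.98-fold below it (-0.98, SE 0.09, adjusted p = 4.62e-08).

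Ligase IV and its cofactors fell together after both exposures. Nhej1 (XLF) read 0.70, 0.89 and 0.99 in control, 0.36, 0.39 and 0.76 at low dose, 0.29, 0.39 and 0.71 at high dose, and -0.65, -0.36 and -0.01 in RAR. Lig4 read 4.10, 4.24 and 4.33 in control, 3.83, 4.02 and 4.19 at low dose, 3.81, 3.95 and 4.08 at high dose, and 2.87, 3.14 and 3.63 in RAR. For both, the 6 RAR arrays were below all 18 others. Nhej1 was 2.34-fold and Lig4 2.04-fold lower in RAR than in control (adjusted p = 1.07e-09 and 3.37e-08), and Xrcc4, the scaffold of ligase IV, differed by -0.65. Prkdc, the DNA-dependent kinase subunit, and Polq, the polymerase of alternative joining, were not called in any comparison with control.

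Dclre1c (Artemis), the nuclease that opens hairpin ends, ran the other way. Its log2 ratios were 1.04, 1.44 and 1.63 in control, 1.83, 1.89 and 1.97 at low dose, 1.88, 1.98 and 2.14 at high dose, and 2.18, 2.33 and 2.38 in RAR. Every irradiated array was above every control array, with differences of 0.54 (not called), 0.62 and 0.96. The rise depended on the transcript probed: a second probe of the same RefSeq transcript gave 0.82 after RAR and was called, while the 2 probes of another RefSeq transcript gave 0.15 and 0.02 and were not.

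Base excision and single-strand break repair held large changes in both directions. After RAR 5 of 7 genes fell and 1 rose. Apex1, the endonuclease that cuts at abasic sites, read -0.88, -0.84 and -0.66 in control, -2.33, -2.21 and -2.11 at low dose, -2.30, -2.11 and -2.07 at high dose, and -2.52, -2.19 and -2.10 in RAR. Each exposure alone separated it fully from control, and the 3 irradiated treatments overlapped. The fall was 2.66-fold after 0.075 Gy, 2.53-fold after 1.75 Gy and 2.69-fold after both (log2 differences -1.41, -1.34 and -1.43, SE 0.06 in each, adjusted p = 6.1e-11, 8.76e-11 and 9.64e-12).

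Ung, the uracil glycosylase that starts base excision at uracil, rose in steps. It read 1.23, 1.48 and 1.65 in control, 2.06, 2.21 and 2.75 at low dose, 2.04, 2.36 and 2.71 at high dose, and 2.87, 3.09 and 3.55 in RAR. No RAR array overlapped any other treatment, and neither single dose overlapped control. Ung was 1.79-fold higher than control after low dose, 1.88-fold after high dose and 3.27-fold after RAR (log2 difference 1.71, SE 0.12, adjusted p = 2.4e-09).

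Lig3, the ligase that seals single-strand breaks, read 0.05, 0.12 and 0.31 in control, -0.81, -0.42 and -0.27 at low dose, -0.80, -0.66 and -0.21 at high dose, and -1.31, -1.14 and -0.90 in RAR. It was lower than control by 0.59, 0.72 and 1.27, the low-dose call being lost on leaving out any of 5 single arrays, and a second probe gave -0.90 after RAR and was called. Parp1, the sensor of strand breaks, fell by 0.94, 0.86 and 1.27 after low dose, high dose and RAR. The oxidised guanine glycosylase gene Ogg1 (-1.10) and the scaffold gene Xrcc1 (-0.63) were called only after RAR, and Xrcc1 lost that call without male control replicate 1. Polb, the gap-filling polymerase, was not called, at -0.42 after RAR.

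Nucleotide excision repair was mixed, with 2 of 6 genes lower and 1 higher after RAR. Ercc5 (XPG), the nuclease that cuts 3′ of a lesion, read -0.38, -0.12 and 0.07 in control, 0.28, 0.47 and 0.66 at low dose, 0.44, 0.67 and 0.79 at high dose, and 0.22, 0.59 and 0.76 in RAR. Every irradiated array was above every control array, by 0.63, 0.79 and 0.70 on average (SE 0.08 in each). Xpc, the lesion sensor, read 1.37, 1.40 and 1.43 in control, 0.93, 0.98 and 1.08 at low dose, 0.76, 0.97 and 1.08 at high dose, and 0.49, 0.62 and 0.91 in RAR. Control Xpc values lay above all 18 irradiated arrays, but only the RAR difference of -0.73 passed 1.5-fold, those of -0.40 and -0.44 having adjusted p = 0.000219 and 7.91e-05.

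Ercc1, the partner of the 5′ nuclease XPF, read -1.12, -0.93 and -0.81 in control, -1.45, -1.32 and -1.07 at low dose, -1.34, -1.25 and -1.17 at high dose, and -1.77, -1.59 and -1.54 in RAR, and was called after RAR at -0.69 (SE 0.07). Ercc4, which encodes XPF, Xpa, a scaffold of the incision complex, and Ddb2, a sensor of ultraviolet lesions, were not called, with differences from control between -0.21 and 0.24, although a second probe of Xpa gave -0.53 after RAR. Msh6, of mismatch repair, was at 0.02, -0.05 and -0.26 and was not called.

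The translesion polymerases moved apart. Polk, the Y-family polymerase κ, read 0.11, 0.21 and 0.31 in control, 1.41, 1.51 and 1.84 at low dose, 1.48, 1.80 and 2.09 at high dose, and 1.46, 1.81 and 1.93 in RAR. Each exposure set it above all control arrays, by 2.56-fold, 3.06-fold and 2.96-fold (log2 differences 1.36, 1.61 and 1.57, SE 0.09 in each, adjusted p = 7.96e-09, 6.89e-10 and 2.14e-10), and a second probe gave 1.20 after RAR and was called. Polh, polymerase η, read -0.46, 0.02 and 0.18 in control, -1.25, -0.54 and -0.22 at low dose, -0.81, -0.59 and -0.11 at high dose, and -1.27, -1.20 and -1.04 in RAR. Its difference of -0.62 after low dose was called, a call lost on leaving out any of 4 single arrays, that of -0.50 after high dose was not, and after RAR it was 2.21-fold lower.

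Rrm2b, the TRP53-inducible subunit of ribonucleotide reductase that supplies nucleotides for repair, was called lower in each irradiated treatment. It read -0.56, -0.22 and 0.17 in control, -2.23, -1.02 and -0.18 at low dose, -1.87, -1.56 and -0.57 at high dose, and -2.12, -1.72 and -0.61 in RAR. Its probe was well above background on 6 control, 4 low-dose, 3 high-dose and 0 RAR arrays, so the size of the fall in RAR was not measured, and no fold is given for it. The fit called all 3 differences from control, at -0.89 after low dose, -1.13 after high dose and with adjusted p = 0.000805 after RAR. The slide block ended all 3 calls, and the low-dose call was also lost on leaving out any of 5 single arrays. Its other probe was well above background on 0 arrays, differed by 0.41 after RAR and was not called.

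Of 3 Fanconi anaemia genes, which act on DNA crosslinks and stalled forks, 2 fell after RAR. Fancd2, whose protein is ubiquitinated in this pathway, read -0.76, -0.66 and -0.08 in control and -2.07, -1.34 and -0.45 at low dose. It read -1.94, -1.23 and -0.71 at high dose, and -2.46, -2.19 and -1.45 in RAR, where 1 of 6 arrays was well above background. It was called at -0.77 after low dose, -0.71 after high dose and -1.43 after RAR, the last resting on RAR signals that were mostly near background. The low-dose call was lost on leaving out any of 5 single arrays and the high-dose call on leaving out any of 14, and both were lost with the slide as a block. Its partner Fanci read 0.14, 0.45 and 0.74 in control, 0.33, 0.58 and 0.71 at low dose, 0.05, 0.38 and 0.68 at high dose, and -0.66, -0.23 and -0.02 in RAR. Only RAR did not overlap control, at -0.68 (SE 0.11). Fanca was at -0.51 after RAR and was not called.

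**Figure D2:**
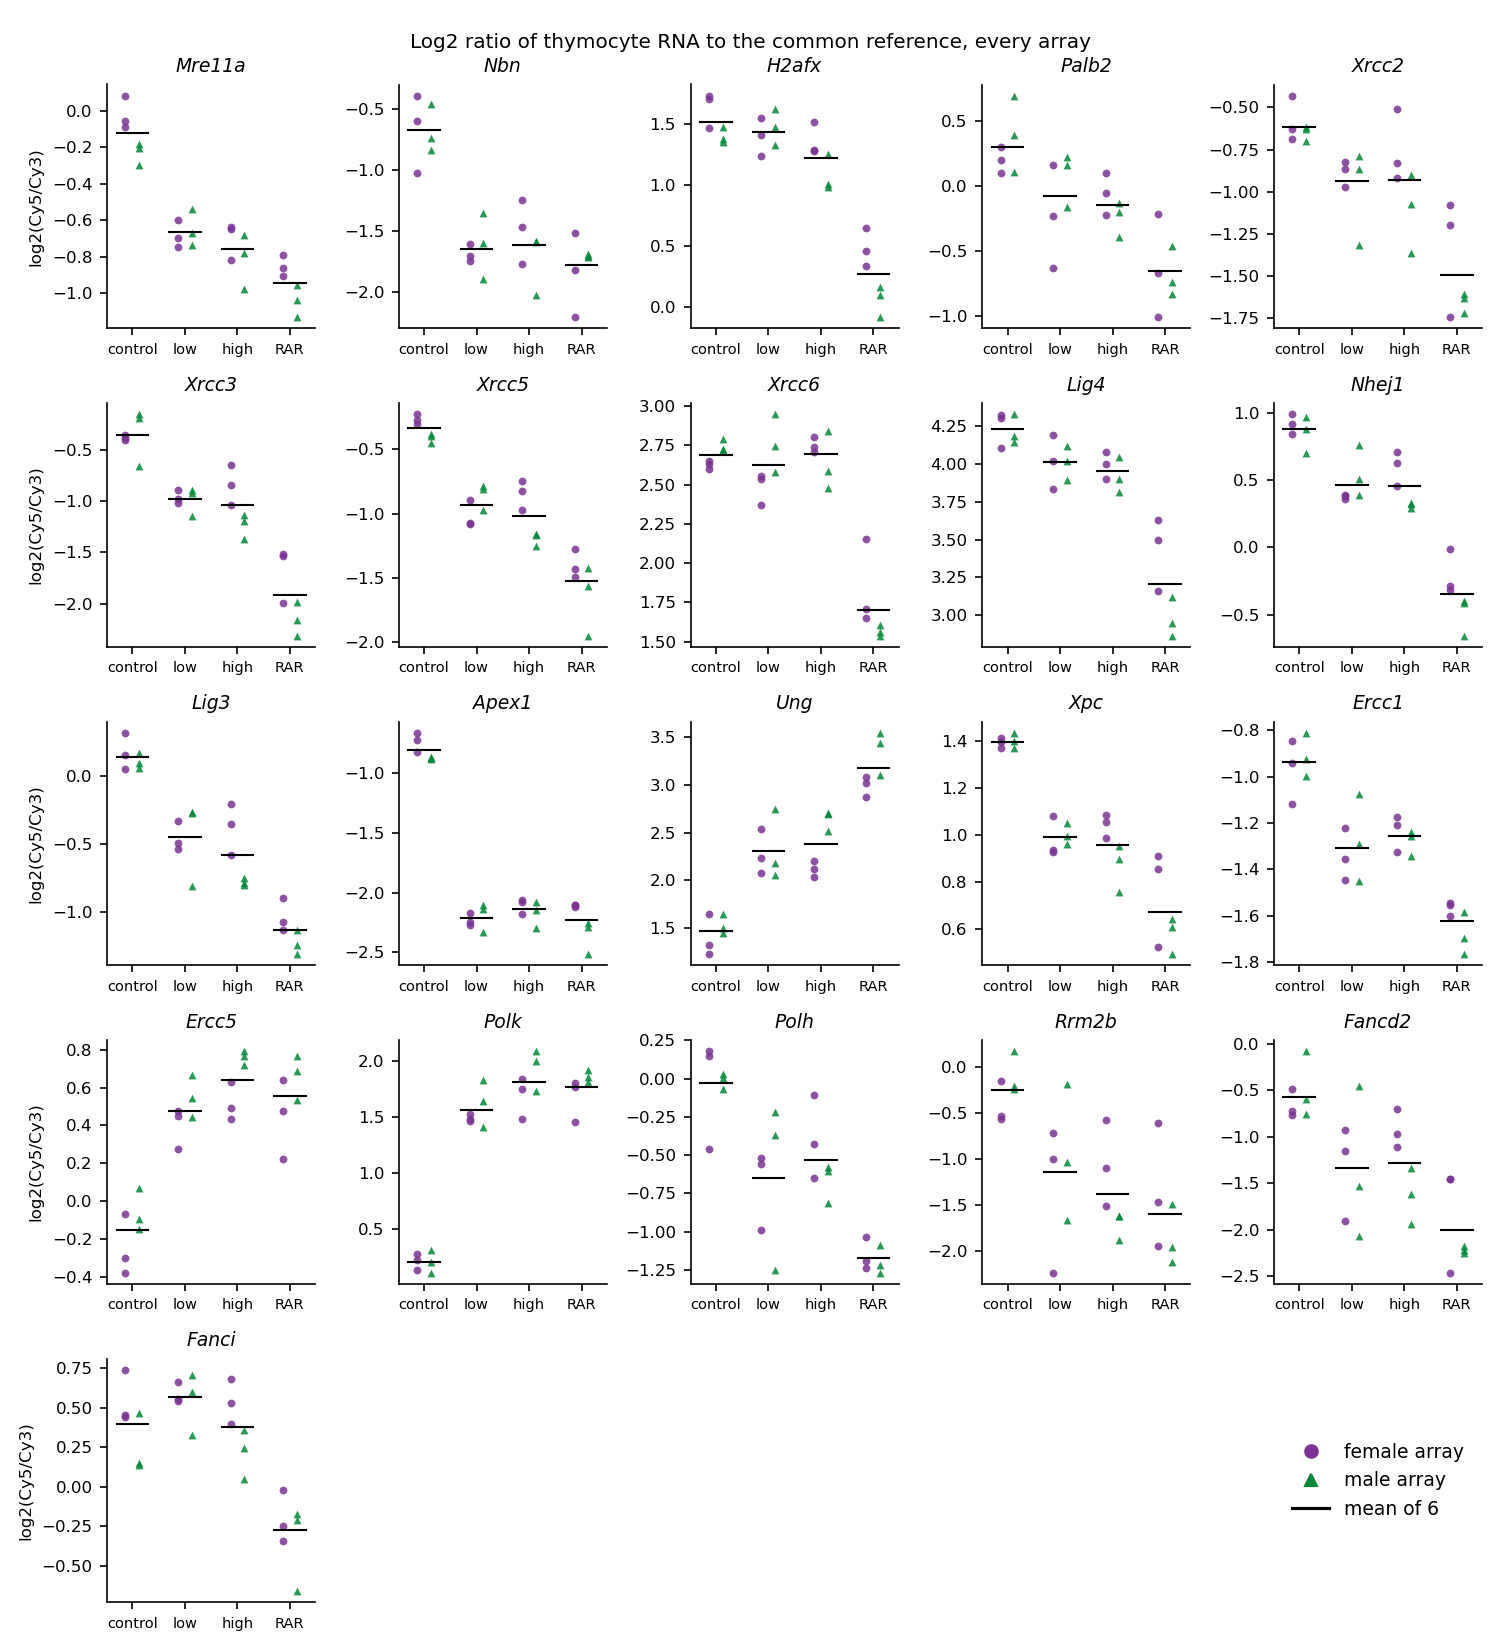
Log2(Cy5/Cy3) (y axis, a scale of its own in each panel) on every array for 21 genes under control, low dose, high dose and RAR (x axis); circles are female arrays, triangles male arrays and lines the mean of 6. Nbn, Apex1 and Polk take one irradiated level, Ung, Xrcc3 and Xrcc5 step further in RAR, and H2afx, Xrcc6 and Fanci are separate from control in RAR alone.

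Whether the combined schedule differed from either exposure alone was tested directly. Against high dose alone, RAR lowered 9 of the 48 genes and raised 1, with 4.23% and 5.29% of all probes called lower and higher. Xrcc6 (-0.99), H2afx (-0.95), Xrcc3 (-0.88), Nhej1 (-0.80), Lig4 (-0.75), Fancd2 (-0.72), Fanci (-0.65), Polh (-0.64) and Rad52 (-0.60) were lower, and Ung (0.80) was higher. In this comparison the call of Fancd2 was lost on leaving out any of 15 single arrays, that of Rad52 with any of 3, and those of Polh and Fanci with 1 each. Against low dose alone, RAR lowered 8 and raised 1, with 4.29% and 4.78% of all probes called lower and higher. H2afx (-1.17), Xrcc3 (-0.94), Xrcc6 (-0.92), Fanci (-0.84), Nhej1 (-0.81), Lig4 (-0.81), Lig3 (-0.68) and Xrcc5 (-0.59) were lower, and Ung (0.87) was higher. The call of Xrcc5 here was lost on leaving out any of 6 single arrays. The adjusted p of these genes ran up to 0.044 for Fancd2 against high dose and 4.7e-05 for Xrcc5 against low dose.

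Genes at one irradiated level showed small differences here, with intervals that bound them. For Apex1 RAR minus high dose was -0.09 (95% interval -0.23 to 0.04) and RAR minus low dose -0.02 (-0.16 to 0.12). For Polk the same differences were -0.04 (-0.23 to 0.15) and 0.21 (0.02 to 0.40), and for Ercc5 -0.09 (-0.26 to 0.09) and 0.08 (-0.10 to 0.25). Nbn was at -0.16 (-0.46 to 0.13) and -0.12 (-0.42 to 0.17). All of these intervals lay inside 1.5-fold. Without male low-dose replicate 2, 16 genes were called in RAR against low dose in place of 9, and 7 in low dose against control in place of 13. RAR and high dose shared slides 1 and 2, and within each the 10 genes called between them kept their signs. The 9 called against low dose did so within slide 2. All were called with these same arrays, so kept signs were likely beforehand and say little about the slide.

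**Figure D3:**
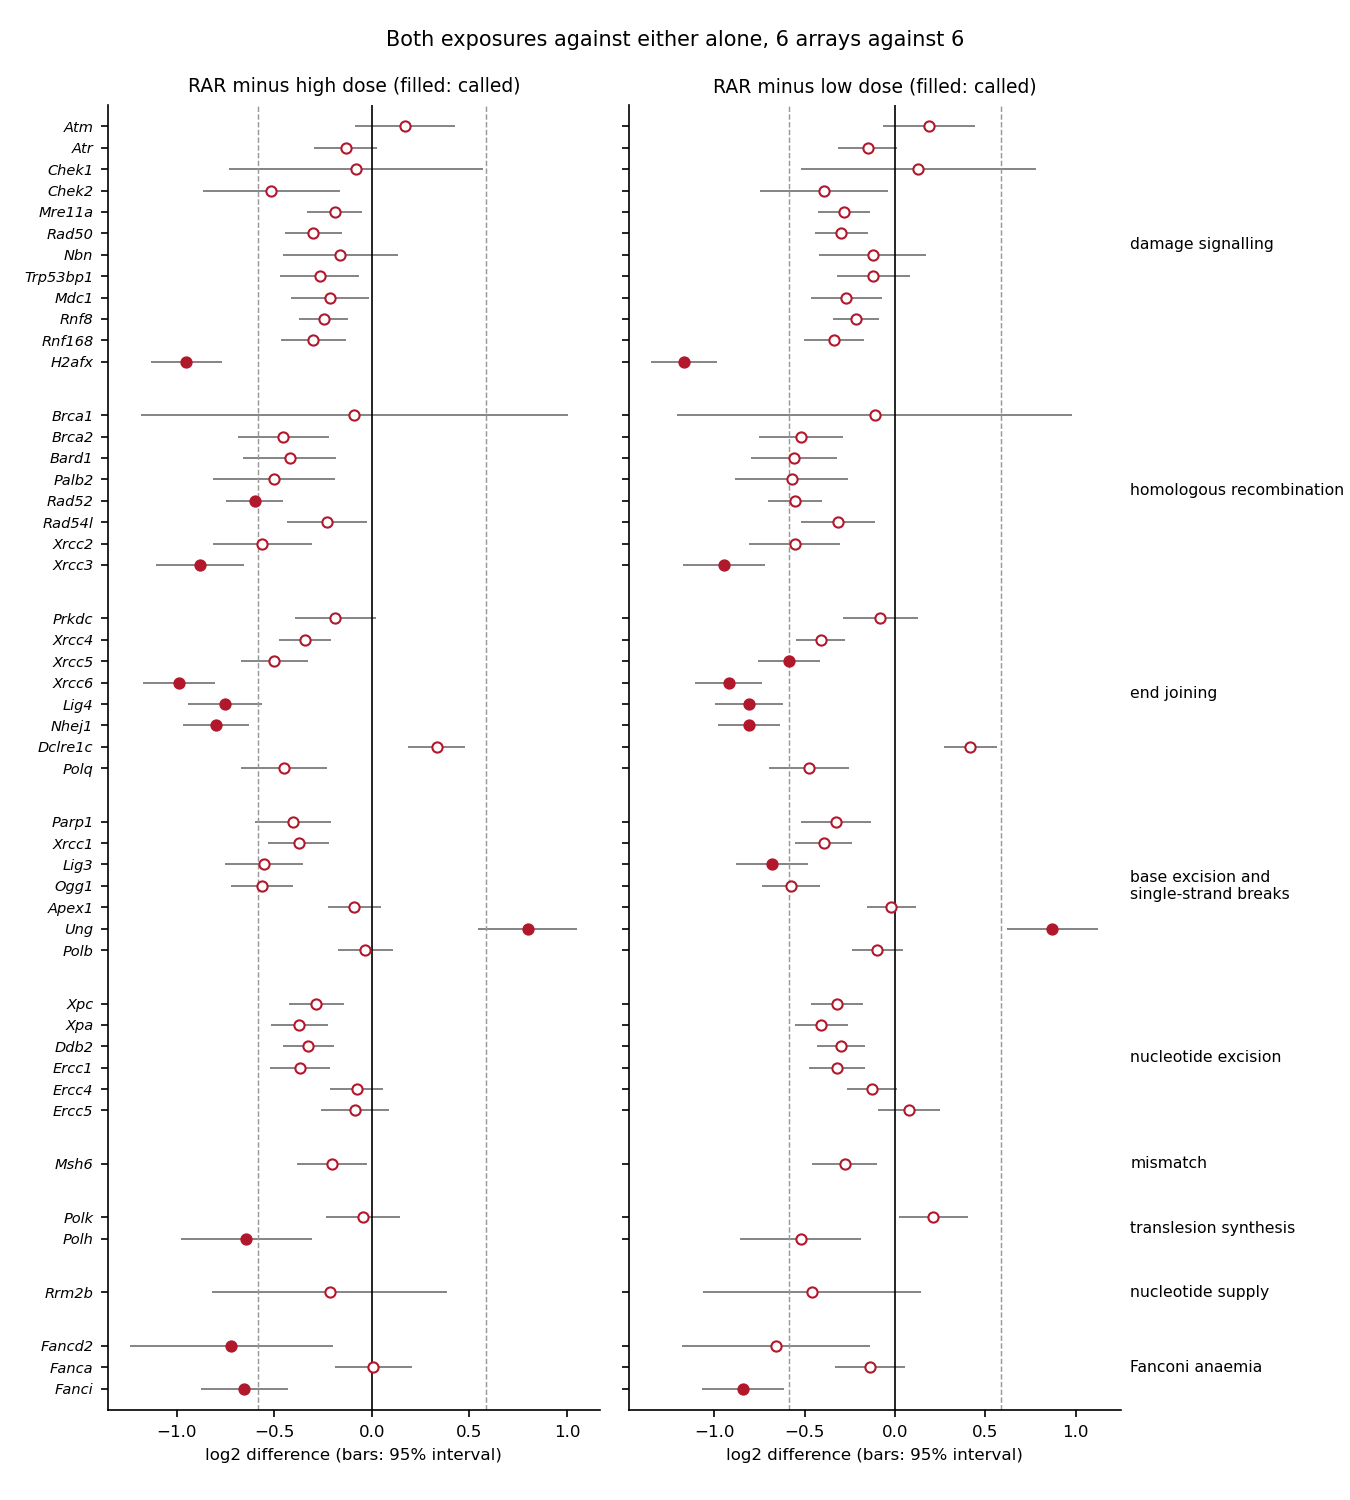
Log2 difference of RAR from high dose alone (left) and from low dose alone (right) for the 48 genes, grouped by role; points are estimates over 6 arrays against 6, bars are 95% intervals, filled points are called and dashed lines mark 1.5-fold. Ung is the filled point right of 0 in both panels, and Xrcc6, H2afx, Xrcc3, Nhej1, Lig4 and Fanci are filled left of 0 in both.

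The sexes were compared because the design holds both under each treatment. RAR minus control had the same sign in females and males for 46 of 48 genes. Male RAR minus female RAR called 0 of the 48 by limma (10 at an unadjusted p under 0.05), with 0.438% of all probes called. The differences were mostly below 0: 12 of the 48 were above it, and their median was -0.14, beside -0.009 over all probes. The mean of the 48 log2 ratios lay between -0.46 and -0.42 on male RAR arrays and between -0.35 and -0.27 on female RAR arrays. The 48 genes share these arrays, so no test was made of this shift. H2afx (-0.42, adjusted p = 0.185), Lig4 (-0.45, adjusted p = 0.17) and Xrcc3 (-0.47, adjusted p = 0.229) were lower and Ung (0.38, adjusted p = 0.395) higher in males, none of them called. The F-test of the interaction of sex and treatment called 0 of the 48 (4 at an unadjusted p under 0.05), with 0.00359% of all probes called. Leaving out the farthest value of each group, one reading of the study's quality step, raised these counts to 3 and 28, when 10358 and 33572 of all 55681 probes were called. The widest gap in the response to RAR among genes that rose was that of Dclre1c, 1.19 in females and 0.72 in males (difference -0.47, 95% interval -0.76 to -0.18, adjusted p = 0.524). Xrcc3 fell by 1.30 in females and by 1.82 in males, a difference of -0.52 with an interval from -0.97 to -0.07 and an adjusted p = 0.621.

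**Figure D4:**
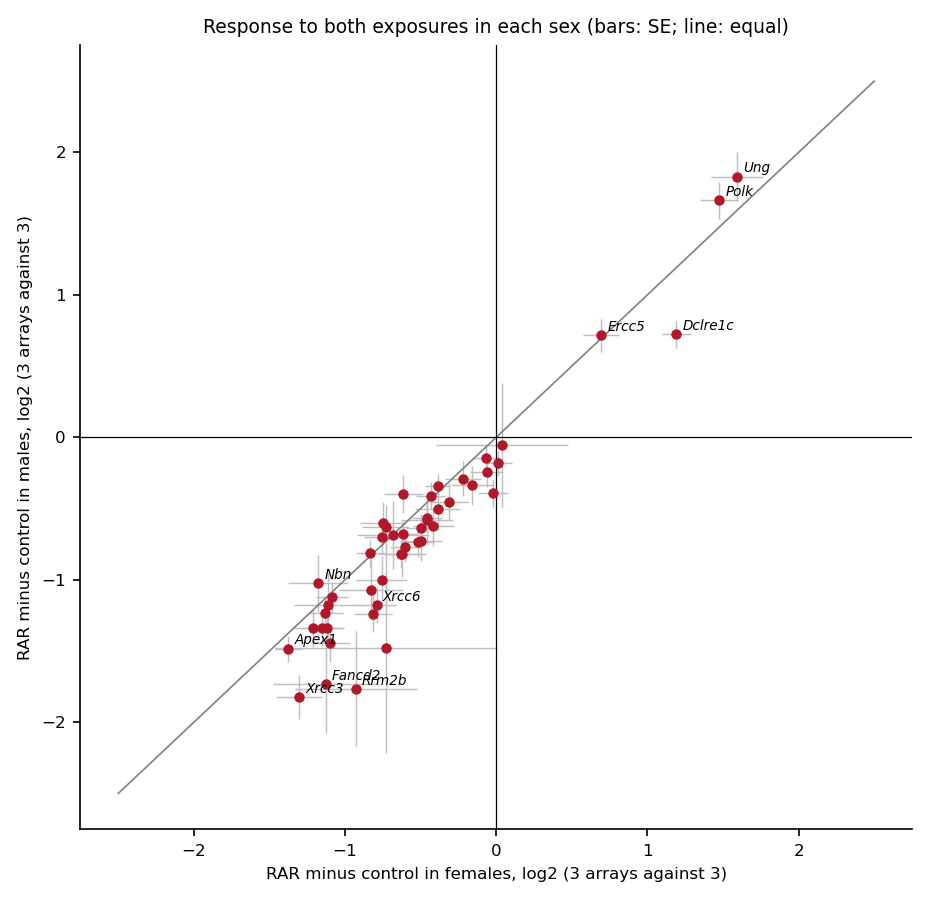
RAR minus control in females (x axis) against the same difference in males (y axis), log2 scale, for the 48 genes, 3 arrays against 3 in each sex; bars are SE and the line marks equal differences. The genes lie along the line, with Ung and Polk at the upper end and Xrcc3 lowest in males.

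The mean of all 48 log2 ratios on an array summarised the set. It lay between 0.10 and 0.33 in control, between -0.20 and 0.08 at low dose, between -0.23 and 0.10 at high dose and between -0.46 and -0.27 in RAR. The RAR arrays were below all others, and the lowest control array and the highest high-dose array lay at about the same value. Marker lists also differed between treatments, not all in the direction of this mean. Of 12 S phase genes, 7 were called lower after low dose, 8 after high dose and 10 after RAR, and their array means ran from -0.00 to 0.47 in control, -0.69 to -0.30 at low dose, -0.77 to -0.36 at high dose and -1.21 to -0.75 in RAR. Of 12 genes of G2 and M, 4 were lower in RAR than in control, 11 were lower than at high dose and 10 lower than at low dose. After the single doses most of this list lay above control, with a median log2 difference of 0.27 after low dose and 0.20 after high dose. Called against control were 2 higher and 0 lower after low dose, and 1 higher and 1 lower after high dose. Myeloid markers were higher in RAR, 8 of 11 against control, with array means of 0.13 to 0.69 in control, 0.76 to 0.99 at low dose, 0.81 to 1.31 at high dose and 1.54 to 2.26 in RAR. Markers of mature T cells were higher for 4 of 5 after RAR, and B cell markers were lower for 4 of 5. Of 7 thymic epithelial markers 4 were lower and 1 higher. Only 2 of the 5 B cell and 4 of the 7 epithelial markers were well above background on every array. Thymocyte markers were steadier: of 12, 2 were higher and 2 lower in RAR than in control, and array means were 5.23 to 5.69 in control and 5.35 to 5.60 in RAR. The part of these cell cycle and cell type differences in the repair gene values was not tested.

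**Figure D5:**
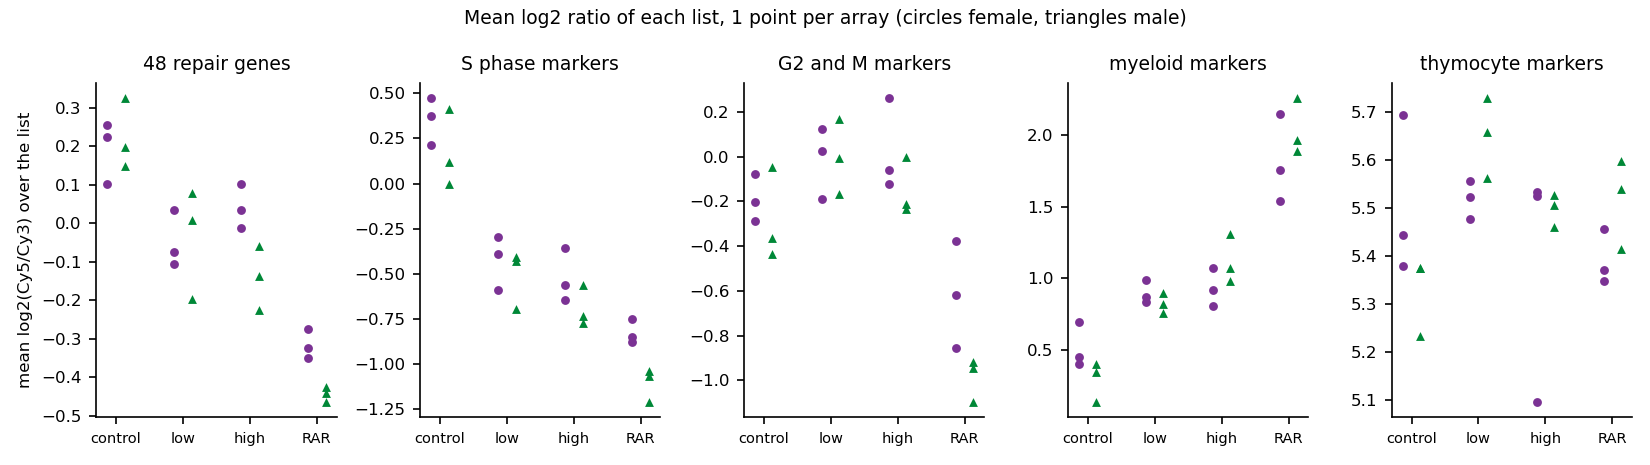
Mean log2(Cy5/Cy3) over a list of genes (y axis, a scale of its own in each panel) on each of the 24 arrays by treatment (x axis), for the 48 repair genes and for S phase, G2 and M, myeloid and thymocyte markers; circles are female and triangles male arrays. On the RAR arrays the repair genes lie below, and the myeloid markers above, all other arrays. S phase and G2 and M genes reach their lowest values in RAR, where some arrays overlap those of other treatments.

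Of 12 repair genes known to peak in S or G2 phase, 6 fell and 1 rose after RAR with a median of -0.64, beside -0.68 for all 48. Ung, which peaks in S phase in cycling cells, was the one that rose. Of 5 repair genes known as TRP53 targets, Polk rose after RAR, Polh, Rrm2b and Xpc fell, and Ddb2 was at -0.08 and not called. The Rrm2b probe was well above background on 0 RAR arrays, and its call was lost with the slide as a block. Other TRP53 targets rose on the same arrays: of 16 listed, among them Cdkn1a and Mdm2, 12 were higher after low dose, 13 after high dose and 11 after RAR, and 0 were lower.

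Repair genes outside the 48 were also mostly lower. Of 64 further genes of the same pathways, 39 fell and 2 rose after RAR, 11 fell and 2 rose after low dose, and 13 fell and 2 rose after high dose. Their median difference after RAR was -0.66. The largest falls after RAR were those of Ube2t, the ubiquitin conjugase of the Fanconi pathway (-1.81), Tipin, which protects replication forks (-1.73), the resection nuclease Exo1 (-1.51) and the checkpoint adaptor Clspn (-1.51). Mgmt, which removes alkyl groups from guanine, had the largest rise, at 2.27 after low dose, 2.23 after high dose and 2.00 after RAR. RAR lowered 14 of the 64 against high dose and 15 against low dose, and raised 0 in either.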

How the data were processed

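The 24 thymocyte samples, each on its own 2-colour Agilent array, fell by their labels into 8 groups of 3 by sex and treatment. The authors deposited the scanner software's output for every array, with spot intensities in both channels; per the file headers, the processed intensities had background subtracted and dyes balanced within the array, with surrogate values for spots not above background. A second deposited file held log2 ratios of Cy5 to Cy3, of which 100% lay within 0.01 of those computed here from the processed intensities, and served as an alternative. The harvest time was not given in the sources used here.

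Control spots and spots marked as outliers (183 to 368 an array) were dropped. No spot was saturated. Spots of a probe were averaged as log2(Cy5/Cy3), with no normalisation between arrays. This left 55681 probes, 28026 of them named through the RefSeq gene table (GRCm38.p6, names only), and 0 columns of values were left unmatched. One linear model with a mean for each of the 8 groups was fitted by limma 3.58.1 (R 4.3.3; 16 residual and 1.63 prior degrees of freedom), and contrasts averaged the sexes. P-values were adjusted over all probes by the Benjamini-Hochberg method, with calls at an adjusted p under 0.05 and 1.5-fold. Tables were read with pandas 2.3.3 (Python 3.11.15), and plots were drawn with matplotlib 3.10.9. The fit was tested on simulated data. The number of arrays limits the precision. The p-values set each difference of means against the spread between samples within groups, pooled over the 8 groups.

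The genes, lists and tests were chosen with earlier results of these data known. Full values are given for up to 3 genes of a role with the largest called difference from control, for any called in opposite directions, and for the 5 largest called differences of RAR from each single dose and between the sexes in RAR; other genes are given in brief. Alternatives were the background correction, quantile normalisation, Cy5 alone after scaling each array on its 75th percentile, the authors' deposited ratios, a filter on dim probes, the slide and the replicate number as blocks, the value farthest from its group mean left out, a log2 threshold of 1.5, the mean over a gene's probes, each array left out in turn and, added after the values were seen, the 2 female RAR arrays of unusual detection left out. Same-numbered samples did not deviate together (r from -0.16 to 0.22 over 84 pairs of groups), so the numbers were not used as pairs.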

Additional observations from a re-analysis of the deposited data

Results flagged for a closer look

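Over 88 sets of 6 arrays, for the 21 genes given in full and for the mean of all 48 under each treatment, 5 single arrays stood apart from the other 5 by Dixon's ratio, where chance alone marks about 1 set in 20. Xrcc2 read -0.43 on female control replicate 1, above the -0.62 of the next control array, and -1.32 on male low dose replicate 2, below the -0.97 of the next low-dose array. Nhej1 read 0.76 on male low dose replicate 1, above 0.51 on the next. Polk read 1.46 on female RAR replicate 2, below the 1.77 of the next RAR array. Xrcc6 read 2.15 on female RAR replicate 1, above 1.71 on the next, and still below every array of the other treatments. No cause was tested.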

How the results depend on the processing

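No called gene changed sign under any alternative run, in any of the 5 comparisons between treatments. Among the processing choices for the signals, normexp and loess called 5 genes after low dose (13 by the processed signals), 8 after high dose (14), 16 after RAR (31) and 4 in RAR against high dose (10), and of 53 single differences of the genes given in full it ended 23 calls. Over all probes it called 2354, 2901, 7224 and 2359 in those comparisons, against 5526, 6414, 14501 and 5303, and the cause was not tested. The slide as a block gave 8 and 9 after low and high dose. A log2 threshold of 1.5 left 0 after low dose, 1 after high dose, 3 after RAR and 0 in RAR against either dose. Leaving out the farthest value of each group gave 15 in RAR against low dose, 3 in male against female RAR and 28 for the interaction of sex and treatment, where 33572 of all probes were then called; that step shrinks the spread by construction. Quantile normalisation called 1 gene in male against female RAR. Leaving out single arrays gave 7 to 13 genes after low dose (7 without male low dose replicate 2), 13 to 14 after high dose, 30 to 33 after RAR, 7 to 12 in RAR against high dose, 8 to 16 in RAR against low dose (16 without male low dose replicate 2), and 0 in both sex tests. With the replicate block 13, 13, 31, 9 and 9 genes were called in the 5 comparisons and 0 in both sex tests. Cy5 alone called 9, 16, 35, 7 and 12, with the median of all probes at 0.52 after RAR, 0.31 for RAR against high dose and 0.29 against low dose. Under normexp 66.6% of all probes called after RAR were higher, under Cy5 alone 70.6%, and under the processed signals 47.6%. Signal over background limits Brca1, Rrm2b and Fancd2, which were not well above background on most RAR arrays.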

Other observations

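Among the 64 repair genes outside the main set, Neil1, a glycosylase for oxidised pyrimidines, moved in opposite directions. It was higher than control after low dose (log2 difference 0.72, SE 0.11, adjusted p = 0.000133) and after high dose (0.77, SE 0.11, adjusted p = 5.81e-05), and lower than control after RAR (-0.65, SE 0.11, adjusted p = 0.000116). RAR minus high dose was -1.42 and RAR minus low dose -1.38. The gene was singled out after its values were seen. For Mgmt, RAR minus high dose was -0.23 and RAR minus low dose -0.27, and neither was called.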
